A study of Homo sapiens with 60 samples.

Results

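The 44 genes described here carry sugar into the cell, bring galactose and glucose into glycolysis, run glycolysis to lactate, or belong to the hypoxia response that controls many of those steps. They were chosen by symbol from the 60675 genes of the counts file, for their function and with earlier results of these data known, and all 44 passed the filter on low counts that left 17680 genes for testing. They comprise 5 sugar transporters, 6 genes of galactose entry, 3 hexokinases, 7 genes of the phosphofructokinase step, 9 of lower glycolysis, 5 of lactate and pyruvate, and 9 of the hypoxia response. RNA was sequenced from SW1783, a human cell line established from an astrocytoma, treated for 24 h with 70% ethanol extracts of 6 herbs and 2 herbal formulas. All cells grew in Leibovitz's L-15, a medium whose sugar is galactose in place of glucose, and the vehicle was 0.1% DMSO per the sample labels, although the design text of the series gives 2%. Coptidis Rhizoma was given at 0.56, 2.8 and 14 µg/mL (low, medium and high), and Bupleuri Radix at 8.4, 42 and 210 µg/mL. Cimicifugae Rhizoma and Citri Unshius Pericarpium were given at 20, 100 and 500 µg/mL. The same doses served for Aconiti Lateralis Radix Preparata, for Zizyphi Fructus, and for 2 formulas, Banhasasim-tang and Yijung-tang. The extracts are named below by the first word of these names. Each dose of Citri, Cimicifugae, Bupleuri and Aconiti had 3 libraries, each dose of Coptidis, Zizyphi and Yijung-tang had 2, each dose of Banhasasim-tang had 1, and the vehicle had 3. Whether the numbered replicates of a group came from separate cultures is not stated, so p-values measure the spread between these libraries, which may be technical. SW1783 is a single line, and the high doses of Coptidis and Bupleuri were set at the concentration that lowered viability by a fixed share, while the others were capped at 500 µg/mL.

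Glucose transporters of the SLC2A family let hexoses cross the membrane, and hexokinases trap glucose as glucose 6-phosphate. Galactose enters by the Leloir pathway, in which GALM, GALK1 and GALT turn it into galactose 1-phosphate and then glucose 1-phosphate, with UGP2 supplying UDP-glucose and the phosphoglucomutases PGM1 and PGM2 handing the product to glycolysis. Phosphofructokinase is the committed step and is set by fructose 2,6-bisphosphate, which the PFKFB enzymes make and remove. When oxygen is short, the prolyl hydroxylases of the EGLN family stop marking the transcription factor HIF1A for destruction, and it then raises transporters, glycolytic enzymes, lactate export and its own brake EGLN3.

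Library totals of the 58 libraries used lay between 15996157 and 30990264 counts with a median of 24277041, and levels are given as CPM, counts scaled to a common library size with edgeR's TMM factors. Replicate 1 of Aconiti high and replicate 1 of Yijung-tang low stood apart from their groups, each with 10 of the 44 genes more than 2-fold from the other libraries of the group, and were left out. Yijung-tang is therefore compared between high and medium dose. The defining astrocyte genes were near absent in the vehicle libraries (GFAP 0.0414 ± 0.0716, S100B 0.190 ± 0.163, AQP4 0.0158 ± 0.0273 and ALDH1L1 0.0365 ± 0.0324 CPM; SD, n = 3), while VIM (4438 ± 197 CPM), CD44 (2727 ± 8.97 CPM), GJA1 (240.2 ± 2.99 CPM) and SLC1A3 (33.6 ± 2.02 CPM) were present. Summed markers differed between doses. At the high dose of Coptidis the 10 astrocyte markers summed to 10543 to 10595 CPM, against 7542 to 7735 CPM at its low dose, and the 5 neuron markers to 49.7 to 51.7 CPM, against 128.6 to 130.4 CPM. The astrocyte sum was instead lower without overlap with Bupleuri (6766 to 6979, against 7468 to 7782 CPM) and Yijung-tang (6380 to 6430, against 7079 to 7144 CPM). It was also lower with Citri (6861 to 7146, against 7340 to 7781 CPM) and Aconiti (6747 to 6863, against 7320 to 7490 CPM). With Cimicifugae and Zizyphi it overlapped between doses. Neuron markers summed to 96.6 to 103 CPM at the high dose of Bupleuri, against 149 to 156 CPM at its low dose, and to 119.9 to 122 CPM at the high dose of Yijung-tang, against 149 to 151 CPM at its medium dose. Their sum was also lower without overlap with Cimicifugae (144 to 149, against 152 to 154 CPM). With Aconiti it was higher without overlap (165 to 170, against 145 to 151 CPM). The 5 epithelial markers, of which KRT18 held most of the CPM in the vehicle, had lower sums without overlap in all 7 extracts compared between doses. They summed to 60.5 to 64.0 CPM at the high dose of Bupleuri, against 231 to 254 CPM, with Cimicifugae to 121 to 124, against 185 to 199.6 CPM, with Yijung-tang to 120.1 to 125, against 195 to 199.9 CPM, and with Citri to 134 to 145, against 219.6 to 221 CPM. With Aconiti they summed to 152 to 157, against 222 to 228 CPM, with Coptidis to 165 to 167, against 207 to 219.5 CPM, and with Zizyphi to 181 to 195, against 204 to 218 CPM. The 5 microglia and leukocyte markers summed to 269 to 281 CPM at the high dose of Coptidis, 252 to 276 CPM at that of Bupleuri and 228.6 to 229.2 CPM at that of Yijung-tang, against 184 to 189, 176 to 196 and 179.7 to 191 CPM at their lower doses. This sum was also higher without overlap with Citri (207 to 211, against 178 to 197 CPM). With Zizyphi it was lower without overlap (154 to 175, against 180 to 203 CPM). The 4 endothelial markers summed to 35.2 to 37.4 CPM at the high dose of Coptidis and 36.3 to 38.4 CPM at that of Bupleuri, against 28.9 to 29.2 and 22.7 to 27.9 CPM at their low doses. With Zizyphi they summed to 32.1 to 32.8 CPM at the high dose, against 28.5 to 29.1 CPM at its low dose. The 5 oligodendrocyte markers summed to 11.6 to 13.7 CPM at the high dose of Coptidis, against 7.70 to 8.40 CPM at its low dose. Their sum was also higher without overlap with Bupleuri (8.14 to 8.66, against 6.75 to 7.26 CPM) and Aconiti (8.47 to 9.22, against 6.96 to 7.36 CPM). The same held with Zizyphi (7.94 to 8.64, against 6.52 to 6.77 CPM) and Cimicifugae (7.21 to 7.73, against 6.13 to 6.76 CPM). In the vehicle libraries CDH5, AIF1 and MOG were at 0, and EPCAM, CDH1 and RBFOX3 averaged 0.0191, 0.0315 and 0.108 CPM, while KRT18 (240.4 CPM), CD68 (134), TUBB3 (111), SNAP25 (32.2), KDR (26.6), PTPRC (13.4) and CSF1R (3.54) were present. In the vehicle VIM and CD44 held most of the astrocyte sum, KRT18 of the epithelial sum and CD68 of the microglia and leukocyte sum. A changed sum therefore does not show that every marker of its list changed. The part of these markers in the results below was not tested.

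The 44 genes as a whole were counted first between the high and the low dose of each extract, which share the first number of their sample names. A gene is called where the adjusted p was under 0.05, with Benjamini-Hochberg adjustment over all 17680 genes of a comparison after edgeR's quasi-likelihood test, which gives every adjusted p below. At the high dose of Coptidis 18 genes were higher and 19 lower (65.6% of all genes called, 33.2% higher and 32.4% lower). Bupleuri had 14 higher and 22 lower (39.2% of all genes called, 20.6% higher and 18.6% lower). Yijung-tang, high against medium dose, had 7 higher and 16 lower (9.16% of all genes called, 4.11% higher and 5.05% lower). Citri had 7 higher and 5 lower (13.8% of all genes called, 6.44% higher and 7.34% lower), and Cimicifugae 9 and 3 (10.7% of all genes called, 4.88% higher and 5.81% lower). Aconiti had 7 and 3 (9.53% of all genes called, 4.28% higher and 5.25% lower), and Zizyphi 1 and 3 (7.4% of all genes called, 3.12% higher and 4.28% lower). The share called among the 44 genes was 52.3% for Yijung-tang, 84.1% for Coptidis, 81.8% for Bupleuri, 27.3% for Citri and for Cimicifugae, 22.7% for Aconiti and 9.09% for Zizyphi. The median log2 fold change of the 44 genes lay between -0.10 (Bupleuri) and 0.05 (Coptidis), beside medians of -0.02 to 0.00 over all genes. Without regard to sign, the median size of change was 0.47 for the 44 genes with Coptidis, beside 0.52 over all genes, 0.27 beside 0.19 with Bupleuri and 0.16 beside 0.12 with Yijung-tang. In the other 4 extracts it was 0.07 to 0.10, beside 0.11 to 0.12 over all genes. Across the 7 comparisons, 11 genes were only ever called higher, 18 only lower, 12 both ways, and GALT, GPI and ANKRD37 in none. The matching counts over all 17680 genes were not made, and 65.6% of those genes were called with Coptidis alone. These counts therefore describe the 44 genes and do not set them apart from other genes. Where libraries are said below not to overlap between groups, the share of all genes without overlap was not counted. Such statements describe the libraries of that gene only. In bulk RNA, fewer cells that express a gene and less RNA per cell cannot be told apart. With both divergent libraries in the fit, the counts were 11 higher and 12 lower for Coptidis (43.4% of all genes called), 11 and 5 for Bupleuri (13.2%), 1 and 1 for Yijung-tang (0.409%), 1 and 0 for Citri (1.05%), 2 and 0 for Cimicifugae (0.611%), 7 and 1 for Aconiti (8.78%), and 0 and 0 for Zizyphi (0.151%). The Aconiti genes were mostly different ones. Of the 8 called in that fit, 3 were among the 10 called without the divergent libraries, and 1 of those 10 changed sign.

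**Figure D1:**
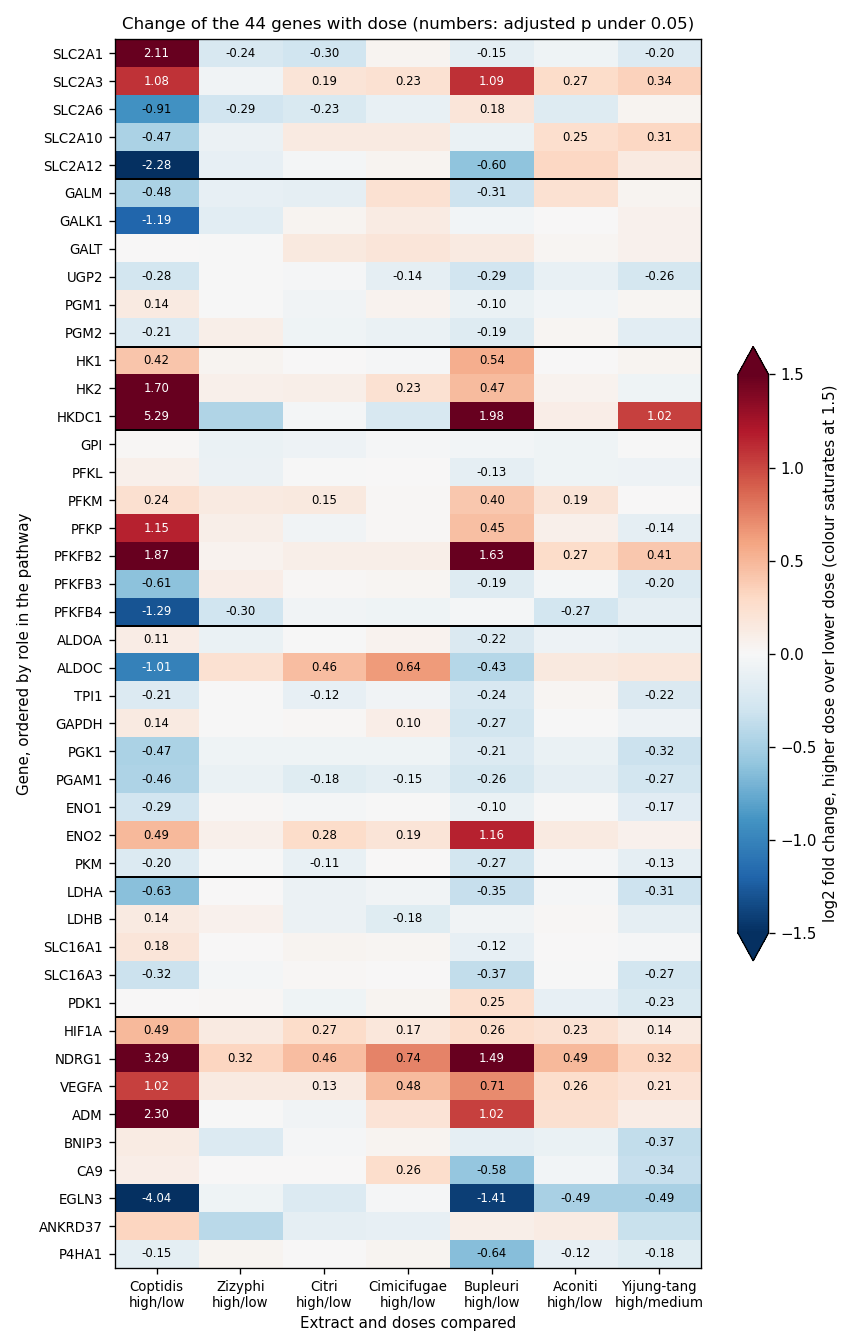
Log2 fold change of each of the 44 genes (rows, in pathway order, black lines between roles) from the lower to the higher dose of 7 extracts (columns), with the value printed where the adjusted p was under 0.05 and colour saturating at 1.5. Coptidis and Bupleuri carry the widest changes, NDRG1 has a value in every column, and GALT, GPI and ANKRD37 in none.

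**Figure D2:**
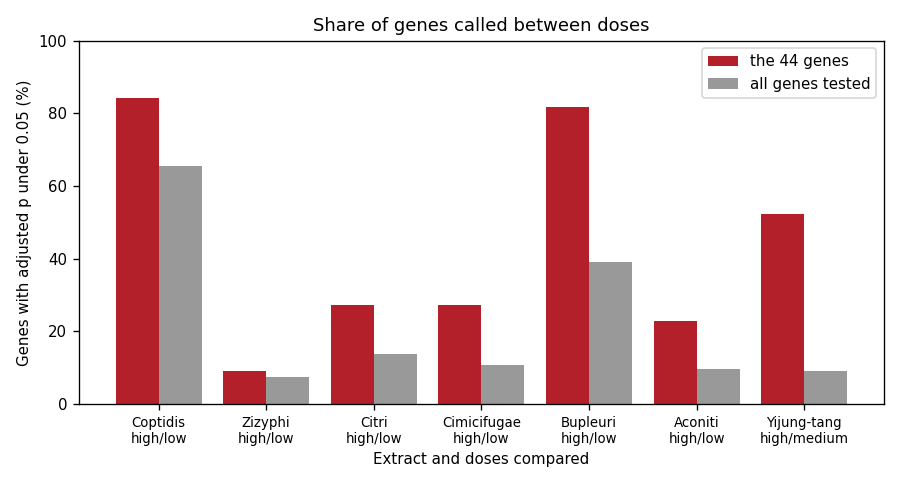
Percent of genes with adjusted p under 0.05 between doses (vertical axis, linear from 0) for the 44 genes (red) and all 17680 genes tested (grey), 1 pair of bars per extract. The Yijung-tang bars stand at 52.3% and 9.16%, and those of Zizyphi at 9.09% and 7.4%.

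Between doses the hexokinases were called higher or not at all. HKDC1, a hexokinase domain protein normally low in most tissues, had the largest rise of the 44 genes (chr10:69220303-69267559 on GRCh38). It had 87.6 and 87.0 CPM at the high dose of Coptidis, against 2.24 and 2.22 CPM at its low dose and 2.34, 2.51 and 1.74 CPM in the vehicle libraries, a 39.1-fold difference between doses (log2 fold change 5.29 ± 0.15 (SE), adjusted p = 3.77e-31). At the medium dose it stood at 8.93 and 8.86 CPM, so the 3 Coptidis doses were separated without overlap. HKDC1 also had 11.1, 9.43 and 10.0 CPM at the high dose of Bupleuri, against 3.31, 2.16 and 2.27 CPM at its low dose (log2 fold change 1.98 ± 0.13 (SE), adjusted p = 7.59e-17). With Yijung-tang it had 4.89 and 4.56 CPM at the high dose, against 2.24 and 2.41 CPM at its medium dose (log2 fold change 1.02 ± 0.18 (SE), adjusted p = 8.93e-05). In both comparisons every library of the higher dose lay above every library of the lower dose. In the other 4 extracts its log2 fold change lay between -0.45 (Zizyphi) and 0.10 (Aconiti) and was not called. The rise with Coptidis exceeded that with Bupleuri by 3.31 ± 0.21 (SE), adjusted p = 1.92e-17 on the log2 scale, at doses that differ in µg/mL. HKDC1 is the lowest of the 44 genes per kilobase of exon in the vehicle.

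HK2, the inducible hexokinase of fast-growing and hypoxic cells, had 183 and 171 CPM at the high dose of Coptidis, against 53.5 and 55.4 CPM at its low dose (log2 fold change 1.70 ± 0.06 (SE), adjusted p = 1.65e-27). In Bupleuri it had 73.3, 70.1 and 71.6 CPM at the high dose, against 51.0, 55.6 and 48.8 CPM at its low dose (log2 fold change 0.47 ± 0.05 (SE), adjusted p = 8.36e-11), and in Cimicifugae 64.2, 63.0 and 64.3 CPM at the high dose, against 57.7, 55.0 and 50.2 CPM at its low dose (log2 fold change 0.23 ± 0.05 (SE), adjusted p = 0.00145). The groups did not overlap in any of these comparisons, and the vehicle libraries stood at 55.5, 50.4 and 53.0 CPM, beside the low doses. HK1, the constitutive hexokinase of brain, had 479.8, 456 and 467 CPM at the high dose of Bupleuri, against 329, 326 and 312 CPM at its low dose (log2 fold change 0.54 ± 0.03 (SE), adjusted p = 1.25e-19). With Coptidis it had 459 and 437 CPM at the high dose, against 341 and 332 CPM at its low dose (log2 fold change 0.42 ± 0.04 (SE), adjusted p = 1.26e-13). In contrast to HKDC1 and HK2, HK1 rose more with Bupleuri than with Coptidis, by 0.12 ± 0.05 (SE), adjusted p = 0.0235 on the log2 scale.

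Among the transporters, SLC2A1 and SLC2A3 went different ways across extracts. SLC2A1 (GLUT1, the main basal glucose transporter, chr1:42925375-42959176) had 749.5 and 702 CPM at the high dose of Coptidis, against 168 and 169.7 CPM at its low dose, with 205 and 216 CPM at the medium dose and 169.6, 160.2 and 167 CPM in the vehicle (log2 fold change 2.11 ± 0.04 (SE), adjusted p = 5.51e-36). The high-dose Coptidis libraries were above those of every other group. In 4 extracts SLC2A1 fell instead. Its levels were 138, 136 and 148 CPM at the high dose of Citri, against 179, 168 and 171 CPM at its low dose (log2 fold change -0.30 ± 0.03 (SE), adjusted p = 2.85e-08). Zizyphi had 141 and 136 CPM at the high dose, against 161 and 167 CPM at its low dose (log2 fold change -0.24 ± 0.04 (SE), adjusted p = 0.000164). The falls were -0.15 (adjusted p = 0.000353) with Bupleuri and -0.20 (adjusted p = 0.00125) with Yijung-tang on the log2 scale. No library of the higher dose overlapped one of the lower dose in these 4 extracts. The Coptidis and Citri dose effects on SLC2A1 differed by 2.40 ± 0.06 (SE), adjusted p = 1.05e-33 (log2). This pair was picked after values were seen, as was every such pair of dose effects here.

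SLC2A3 (GLUT3, the high-affinity neuronal transporter) rose in 6 of 7 extracts. It had 70.3, 65.3 and 66.3 CPM at the high dose of Bupleuri, against 32.7, 31.7 and 30.9 CPM at its low dose (log2 fold change 1.09 ± 0.05 (SE), adjusted p = 7.16e-24). With Coptidis it had 77.8 and 70.0 CPM at the high dose, against 34.7 and 35.7 CPM at its low dose (log2 fold change 1.08 ± 0.06 (SE), adjusted p = 2.67e-21). The high-dose levels of these 2 extracts lay near each other although SLC2A1 rose with Coptidis alone among the 7 and fell with Bupleuri. SLC2A3 had 42.9 and 42.9 CPM at the high dose of Yijung-tang, against 33.9 and 33.6 CPM at its medium dose and 40.3 and 39.1 CPM at the high dose of Aconiti, against 33.0, 33.4 and 32.7 CPM at its low dose (log2 fold change 0.34 ± 0.06 (SE), adjusted p = 2.97e-05 with Yijung-tang, log2 fold change 0.27 ± 0.05 (SE), adjusted p = 0.000283 with Aconiti). Cimicifugae and Citri gave log2 fold changes of 0.23 and 0.19, and Zizyphi -0.05 (adjusted p = 0.679). Vehicle libraries had 33.9, 32.8 and 33.5 CPM.

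The other 3 transporters all fell with Coptidis (32.4% of all genes lower). One of the 3 fell with each of Bupleuri, Citri and Zizyphi (18.6%, 7.34% and 4.28% of all genes lower), and one rose with each of Bupleuri, Aconiti and Yijung-tang (20.6%, 4.28% and 4.11% of all genes higher). SLC2A12 (GLUT12) had 1.12 and 0.992 CPM at the high dose of Coptidis, against 4.85 and 5.52 CPM at its low dose, a 4.86-fold fall (log2 fold change -2.28 ± 0.21 (SE), adjusted p = 7.66e-13), and 2.63, 3.05 and 2.84 CPM at the high dose of Bupleuri, against 3.48, 4.84 and 4.62 CPM at its low dose (log2 fold change -0.60 ± 0.14 (SE), adjusted p = 0.000406). SLC2A6, a transporter of lysosomal membranes, had 10.6 and 11.0 CPM at the high dose of Coptidis, against 21.5 and 19.3 CPM at its low dose (log2 fold change -0.91 ± 0.08 (SE), adjusted p = 4.79e-13). It had 17.6 and 16.3 CPM at the high dose of Zizyphi, against 21.4 and 20.0 CPM at its low dose (log2 fold change -0.29 ± 0.07 (SE), adjusted p = 0.0101) and 18.2, 19.0 and 18.1 CPM at the high dose of Citri, against 21.1, 20.3 and 22.9 CPM at its low dose (log2 fold change -0.23 ± 0.06 (SE), adjusted p = 0.00636). In Bupleuri SLC2A6 was higher by 0.18 (adjusted p = 0.0092), against the direction of the other calls. SLC2A10 fell with Coptidis (log2 fold change -0.47) and rose with Yijung-tang (0.31) and Aconiti (0.25), where the calls were lost without either of 2 libraries and any of 3 libraries (adjusted p up to 0.144 and 0.194). The Zizyphi call of SLC2A6 was lost without Zizyphi low replicate 2 or Zizyphi high replicate 3 (adjusted p up to 0.169), and the Citri call without Citri low replicate 3 (0.0911).

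Of the 6 genes of galactose entry, 4 fell and PGM1 rose with Coptidis (32.4% of all genes lower and 33.2% higher), and 4 fell with Bupleuri (18.6% lower). UGP2 alone of the 6 fell with Cimicifugae and with Yijung-tang (5.81% and 5.05% of all genes lower). GALK1, the galactokinase that commits galactose to the pathway, had 8.07 and 7.66 CPM at the high dose of Coptidis, against 17.0 and 19.0 CPM at its low dose, a 2.28-fold fall, with 17.2 and 17.6 CPM at the medium dose (log2 fold change -1.19 ± 0.11 (SE), adjusted p = 4.52e-13). The vehicle libraries had 19.4, 18.1 and 19.1 CPM, and no difference was called between medium and low dose. In the other 6 extracts GALK1 changed by -0.16 to 0.12 (log2) and was not called, and the Coptidis effect differed from that of Bupleuri by -1.15 ± 0.13 (SE), adjusted p = 2.94e-10. GALM, the galactose mutarotase, had 4.09 and 3.97 CPM at the high dose of Coptidis, against 5.34 and 5.93 CPM at its low dose (log2 fold change -0.48 ± 0.12 (SE), adjusted p = 0.00169). In Bupleuri it had 4.56, 5.29 and 5.43 CPM at the high dose, against 6.08, 6.00 and 6.93 CPM at its low dose (log2 fold change -0.31 ± 0.08 (SE), adjusted p = 0.00498), a call lost without Bupleuri high replicate 1 or Bupleuri low replicate 3 (adjusted p up to 0.0965). GALT, the uridylyltransferase at the centre of the pathway, had 12.4 and 14.6 CPM at the high dose of Coptidis, against 12.7 and 14.0 CPM at its low dose, and its log2 fold change over the 7 extracts lay between -0.01 and 0.18 with no call.

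UGP2, which makes UDP-glucose, was lower in 4 extracts. It had 102, 100.3 and 102 CPM at the high dose of Bupleuri, against 123, 123 and 126 CPM at its low dose (log2 fold change -0.29 ± 0.05 (SE), adjusted p = 1.18e-06). With Coptidis it had 114 and 107 CPM at the high dose, against 137 and 132 CPM at its low dose (log2 fold change -0.28 ± 0.06 (SE), adjusted p = 2.64e-05). With Yijung-tang it had 107 and 106 CPM at the high dose, against 130.0 and 124 CPM at its medium dose (log2 fold change -0.26 ± 0.06 (SE), adjusted p = 0.00149). In Cimicifugae it had 114, 108 and 114 CPM at the high dose, against 129.9, 123 and 118 CPM at its low dose (log2 fold change -0.14 ± 0.05 (SE), adjusted p = 0.0368), a small fall that was lost without any of 4 of the 6 libraries. The Yijung-tang call was lost without Yijung-tang medium replicate 1 (adjusted p = 0.056). PGM1 had 94.4 and 89.6 CPM at the high dose of Coptidis, against 81.5 and 85.8 CPM at its low dose and 85.5, 83.2 and 83.1 CPM at the high dose of Bupleuri, against 93.1, 87.1 and 89.9 CPM at its low dose, a rise of 0.14 and a fall, at -0.10 on the log2 scale (adjusted p = 0.00948 and 0.0389). PGM1 had 94.4, 89.3 and 95.2 CPM in the vehicle libraries. The high dose of Coptidis therefore lay within the vehicle range, and its low dose below it. The Coptidis call was lost without replicate 2 of either dose and the Bupleuri call without any of 4 of the 6 libraries (adjusted p up to 0.147 and 0.177). PGM2 was lower, at -0.21 with Coptidis and -0.19 with Bupleuri.

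At the phosphofructokinase step the PFKFB isoforms moved in opposite directions. PFKFB2, an isoform that favours making fructose 2,6-bisphosphate, had 63.1 and 59.8 CPM at the high dose of Coptidis, against 16.4 and 17.4 CPM at its low dose (log2 fold change 1.87 ± 0.07 (SE), adjusted p = 2.09e-26). It had 43.8, 41.7 and 42.2 CPM at the high dose of Bupleuri, against 13.1, 15.1 and 13.3 CPM at its low dose (log2 fold change 1.63 ± 0.06 (SE), adjusted p = 4.73e-26). Smaller rises were seen with Yijung-tang, where PFKFB2 had 19.1 and 21.8 CPM at the high dose, against 15.3 and 15.4 CPM at its medium dose (log2 fold change 0.41 ± 0.08 (SE), adjusted p = 0.000139), and with Aconiti, where it had 17.0 and 18.2 CPM at the high dose, against 15.4, 13.2 and 15.3 CPM at its low dose (log2 fold change 0.27 ± 0.07 (SE), adjusted p = 0.00929). The Aconiti call was lost without Aconiti low replicate 2 or Aconiti high replicate 3 (adjusted p up to 0.22). PFKFB4, the isoform induced by hypoxia in gliomas, went down between doses. It had 13.6 and 13.3 CPM at the high dose of Coptidis, against 33.0 and 33.0 CPM at its low dose (log2 fold change -1.29 ± 0.08 (SE), adjusted p = 6.28e-19), 29.5 and 29.1 CPM at the high dose of Zizyphi, against 36.9 and 35.3 CPM at its low dose (log2 fold change -0.30 ± 0.07 (SE), adjusted p = 0.00257) and 28.9 and 30.6 CPM at the high dose of Aconiti, against 33.8, 36.2 and 37.2 CPM at its low dose (log2 fold change -0.27 ± 0.06 (SE), adjusted p = 0.00158). PFKFB4 had 28.8, 30.8 and 30.1 CPM in the vehicle libraries. The high doses of Zizyphi and Aconiti therefore lay within the vehicle range, and their low doses above it. Without Zizyphi low replicate 2 the Zizyphi call was lost (adjusted p = 0.0599), and without Aconiti high replicate 2 the Aconiti call (0.0618). PFKFB3, another hypoxia-induced isoform, fell, at -0.61 with Coptidis, -0.20 with Yijung-tang and -0.19 with Bupleuri (log2).

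Of the phosphofructokinases themselves, the platelet form PFKP had 446 and 433 CPM at the high dose of Coptidis, against 201 and 198 CPM at its low dose (log2 fold change 1.15 ± 0.04 (SE), adjusted p = 4.4e-28) and rose by 0.45 (log2, adjusted p = 3.8e-16) with Bupleuri. With Yijung-tang it was lower, at -0.14 (log2), a call that was lost without any of 3 of the 4 libraries (adjusted p up to 0.22). The muscle form PFKM rose in 4 extracts, by 0.15 (Citri) to 0.40 (Bupleuri), with the Citri and Aconiti calls each lost without either of 2 libraries. The liver form PFKL fell, at -0.13 with Bupleuri and was called in no other extract. It averaged 155.0 CPM at that high dose, beside 169.3 CPM at the low dose and 155.2 CPM in the vehicle. GPI, the isomerase between hexokinase and phosphofructokinase, stayed between -0.10 and 0.02 in all 7 with no call.

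Of the 9 genes of lower glycolysis, 7 stood within the first 9 of the 44 by vehicle level per kilobase, and their log2 fold changes lay between -0.47 and 0.14. ENO2 and ALDOC, at ranks 26 and 37, had wider changes. Per kilobase of merged exon the vehicle levels ran from GAPDH (1257 CPM per kb) through ENO1 (527), ALDOA (385), PKM (337) and LDHA (295) down to EGLN3 (0.906), SLC2A12 (0.890) and HKDC1 (0.516). GAPDH, ALDOA, PGK1, PGAM1, ENO1 and PKM have processed pseudogenes of near-identical sequence, so the division of their reads is uncertain. With Bupleuri 8 of the 9 genes fell and ENO2 rose (18.6% of all genes lower and 20.6% higher). With Coptidis 6 fell and ALDOA, GAPDH and ENO2 rose (32.4% lower and 33.2% higher), and with Yijung-tang 5 fell and none rose (5.05% lower and 4.11% higher). PGAM1, phosphoglycerate mutase, was lower in 5 extracts, from -0.46 with Coptidis to -0.15 with Cimicifugae (log2). It had 429.6, 445 and 468 CPM at the high dose of Citri, against 500.3, 489 and 534 CPM at its low dose (log2 fold change -0.18 ± 0.05 (SE), adjusted p = 0.00414) and 437, 432 and 469 CPM at the high dose of Cimicifugae, against 509, 496 and 481 CPM at its low dose (log2 fold change -0.15 ± 0.05 (SE), adjusted p = 0.0234). The Citri call ended without Citri low replicate 3 (adjusted p = 0.0546) and the Cimicifugae call without any of 4 of its 6 libraries. PGK1 fell, at -0.47 with Coptidis, -0.32 with Yijung-tang and -0.21 with Bupleuri, and TPI1, ENO1 and PKM by -0.29 to -0.10 in the same 3 extracts. TPI1 and PKM were also lower with Citri, at -0.12 and -0.11. At the high dose of Citri they averaged 700 and 2879 CPM, beside 713 and 2888 CPM in the vehicle. Leaving out single libraries ended the ENO1 calls of Bupleuri and Yijung-tang, the PKM calls of Citri and Yijung-tang and the TPI1 call of Citri.

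GAPDH, often used as a constant reference gene, was not constant here. It was higher by 0.14 with Coptidis and 0.10 with Cimicifugae and lower, at -0.27 with Bupleuri (log2). The Coptidis and Bupleuri effects differed by 0.40 ± 0.05 (SE), adjusted p = 3.52e-09. The Coptidis call was lost without Coptidis high replicate 3 (adjusted p = 0.119), and the Cimicifugae call, whose libraries overlapped between doses, without any of 4 of the 6 libraries. The 2 brain-associated isozymes of this stretch behaved apart from their abundant relatives. ENO2, neuronal enolase, had 117, 124 and 125 CPM at the high dose of Bupleuri, against 54.5, 54.4 and 55.3 CPM at its low dose (log2 fold change 1.16 ± 0.05 (SE), adjusted p = 6.01e-24). It had 68.0, 65.5 and 63.7 CPM at the high dose of Citri, against 53.9, 58.2 and 50.2 CPM at its low dose (log2 fold change 0.28 ± 0.05 (SE), adjusted p = 5.33e-05) and rose by 0.49 with Coptidis and 0.19 with Cimicifugae (lost without Cimicifugae high replicate 2, adjusted p = 0.05), while ENO1 fell or was not called. ALDOC, the brain aldolase, had 14.5, 14.5 and 17.2 CPM at the high dose of Cimicifugae, against 10.1, 9.60 and 10.1 CPM at its low dose (log2 fold change 0.64 ± 0.09 (SE), adjusted p = 7.86e-07) and 11.1, 11.8 and 11.9 CPM at the high dose of Citri, against 7.88, 7.49 and 9.70 CPM at its low dose (log2 fold change 0.46 ± 0.09 (SE), adjusted p = 0.000264). It fell with Coptidis, to 2.76 and 3.97 CPM at the high dose against 6.85 and 6.63 CPM at the low dose (log2 fold change -1.01 ± 0.15 (SE), adjusted p = 9.39e-08), and by -0.43 with Bupleuri. The Cimicifugae and Coptidis effects on ALDOC differed by 1.64 ± 0.17 (SE), adjusted p = 2.99e-11 (log2).

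At the exit of the pathway, the mRNAs of LDHA and SLC16A3 fell in the same 3 extracts as that of PGK1. LDHA, the lactate dehydrogenase subunit that favours lactate (chr11:18394388-18408425), had 1185 and 1136 CPM at the high dose of Coptidis, against 1777 and 1821 CPM at its low dose, with 1588 and 1503 CPM at the medium dose (log2 fold change -0.63 ± 0.04 (SE), adjusted p = 6.03e-18). It had 1421, 1378 and 1460.5 CPM at the high dose of Bupleuri, against 1803, 1728 and 1922 CPM at its low dose (log2 fold change -0.35 ± 0.03 (SE), adjusted p = 2.65e-12) and 1382 and 1402 CPM at the high dose of Yijung-tang, against 1685 and 1749 CPM at its medium dose (log2 fold change -0.31 ± 0.04 (SE), adjusted p = 3.74e-07). In each, no library of the higher dose reached the lower one, and the other 4 extracts lay between -0.09 and 0.00 with no call. SLC16A3 (MCT4, the lactate exporter of glycolytic cells) had 238, 239 and 250.1 CPM at the high dose of Bupleuri, against 299, 323 and 319 CPM at its low dose (log2 fold change -0.37 ± 0.04 (SE), adjusted p = 3.76e-09). With Coptidis it had 214 and 223 CPM at the high dose, against 265 and 281 CPM at its low dose (log2 fold change -0.32 ± 0.06 (SE), adjusted p = 3.25e-06), and with Yijung-tang 254 and 268 CPM at the high dose, against 313 and 315 CPM at its medium dose (log2 fold change -0.27 ± 0.05 (SE), adjusted p = 0.000562). With Aconiti the SLC16A3 value turned on the divergent library, at -0.01 (adjusted p = 0.966) without it and 0.41 (adjusted p = 0.04) with it.

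LDHB, the subunit that favours pyruvate, had 265, 260.4 and 253 CPM at the high dose of Cimicifugae, against 308, 289 and 282 CPM at its low dose (log2 fold change -0.18 ± 0.05 (SE), adjusted p = 0.00643), a call lost without Cimicifugae low replicate 1 (adjusted p = 0.0895). With Coptidis it was higher by 0.14, a call lost without replicate 2 of either dose. LDHB averaged 296 CPM at that low dose and 326 CPM at that high dose, both below the 342 CPM of the vehicle. SLC16A1 (MCT1) rose by 0.18 with Coptidis and fell, at -0.12 (log2 change) with Bupleuri. It averaged 140.3 CPM at the low and 158.7 CPM at the high dose of Coptidis, beside 159.7 CPM in the vehicle. PDK1, the kinase that keeps pyruvate out of mitochondria under hypoxia, had 32.3, 29.6 and 31.4 CPM at the high dose of Bupleuri, against 24.2, 28.1 and 26.3 CPM at its low dose (log2 fold change 0.25 ± 0.06 (SE), adjusted p = 0.000826). In the vehicle libraries PDK1 had 30.1 to 30.8 CPM, near its high-dose Bupleuri level and above its low-dose level. It had 24.7 and 24.5 CPM at the high dose of Yijung-tang, against 28.9 and 28.7 CPM at its medium dose (log2 fold change -0.23 ± 0.07 (SE), adjusted p = 0.0402), a call that ended without any of the 4 libraries. With Coptidis PDK1 stood at 29.5 and 28.1 CPM at the high dose, against 28.4 and 29.2 CPM at the low dose (log2 fold change 0.00, adjusted p = 0.973).

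Of the 9 hypoxia genes, NDRG1, VEGFA and HIF1A rose in 6 or 7 extracts and ADM in 2. EGLN3 and P4HA1 fell in 4 each and BNIP3 in 1, CA9 rose in 1 and fell in 2, and ANKRD37 was called in none. Of all genes, 3.12% (Zizyphi) to 33.2% (Coptidis) were higher and 4.28% (Zizyphi) to 32.4% (Coptidis) lower in an extract. NDRG1, a stress and hypoxia marker, rose in all 7. It had 342 and 349 CPM at the high dose of Coptidis, against 35.1 and 35.6 CPM at its low dose and 35.5, 35.1 and 37.9 CPM in the vehicle, a 9.80-fold rise (log2 fold change 3.29 ± 0.06 (SE), adjusted p = 1.06e-38). With Bupleuri NDRG1 had 108, 103 and 100.1 CPM at the high dose, against 36.7, 35.0 and 39.3 CPM at its low dose (log2 fold change 1.49 ± 0.05 (SE), adjusted p = 2.83e-28), and with Cimicifugae 68.6, 69.0 and 68.5 CPM at the high dose, against 39.4, 41.1 and 42.5 CPM at its low dose (log2 fold change 0.74 ± 0.05 (SE), adjusted p = 8.3e-16). It had 52.0 and 47.9 CPM at the high dose of Aconiti, against 35.8, 34.5 and 36.0 CPM at its low dose (log2 fold change 0.49 ± 0.05 (SE), adjusted p = 4.01e-09), and 53.0, 52.0 and 54.0 CPM at the high dose of Citri, against 38.0 to 38.9 CPM at its low dose (log2 fold change 0.46 ± 0.05 (SE), adjusted p = 2.23e-09). The smallest rises were those of Zizyphi, with 46.1 and 42.8 CPM at the high dose, against 34.8 and 36.6 CPM at its low dose (log2 fold change 0.32 ± 0.06 (SE), adjusted p = 0.000425), and Yijung-tang (log2 fold change 0.32). No high-dose library overlapped the lower dose in any of the 7 extracts. In the extracts other than Yijung-tang this was a condition of the rule by which NDRG1 was picked.

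VEGFA, the angiogenic factor and classical HIF target (chr6:43770184-43786487), rose in 6 of 7. It had 632 and 629 CPM at the high dose of Coptidis, against 309 and 314 CPM at its low dose, with 417 and 428 CPM at the medium dose (log2 fold change 1.02 ± 0.04 (SE), adjusted p = 5.74e-24). It had 503, 498 and 479 CPM at the high dose of Bupleuri, against 289.9, 311 and 305 CPM at its low dose (log2 fold change 0.71 ± 0.04 (SE), adjusted p = 7.8e-21) and 457, 449.8 and 420.1 CPM at the high dose of Cimicifugae, against 326, 312 and 313 CPM at its low dose (log2 fold change 0.48 ± 0.04 (SE), adjusted p = 1.11e-13). Aconiti, Yijung-tang and Citri gave 0.26, 0.21 and 0.13, and Zizyphi 0.13 (adjusted p = 0.0689). The Citri call was lost without Citri high replicate 1 or Citri low replicate 3 (adjusted p up to 0.172). HIF1A, whose protein is set mainly by degradation, had 1617 and 1559 CPM at the high dose of Coptidis, against 1151 and 1121 CPM at its low dose (log2 fold change 0.49 ± 0.05 (SE), adjusted p = 8.22e-13). Citri had 1461, 1358 and 1311 CPM at the high dose, against 1146, 1149 and 1123 CPM at its low dose (log2 fold change 0.27 ± 0.04 (SE), adjusted p = 5.33e-07), and Bupleuri 1213, 1169 and 1194 CPM at the high dose, against 1041, 1011 and 948 CPM at its low dose (log2 fold change 0.26 ± 0.04 (SE), adjusted p = 1.99e-07). The mRNA was also higher with Aconiti (0.23), Cimicifugae (0.17) and Yijung-tang (0.14). The Yijung-tang call was lost without any of its 4 libraries, and with the divergent library in the fit the Aconiti value was -0.19 (adjusted p = 0.616).

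ADM, adrenomedullin, a vasodilator peptide induced by hypoxia, had 50.7 and 50.4 CPM at the high dose of Coptidis, against 11.7 and 8.86 CPM at its low dose (log2 fold change 2.30 ± 0.10 (SE), adjusted p = 8.89e-24) and 21.2, 21.6 and 22.5 CPM at the high dose of Bupleuri, against 10.0, 10.2 and 11.9 CPM at its low dose (log2 fold change 1.02 ± 0.09 (SE), adjusted p = 1.51e-13). The other 5 extracts gave -0.05 to 0.24 with no call. EGLN3, the HIF-induced prolyl hydroxylase (chr14:33924231-34462774), fell. It had 0.460 and 0.441 CPM at the high dose of Coptidis, against 7.13 and 7.87 CPM at its low dose and 7.54, 6.39 and 6.08 CPM in the vehicle, a 16.4-fold fall that was the largest of the 44 genes (log2 fold change -4.04 ± 0.25 (SE), adjusted p = 1.44e-18). With Bupleuri EGLN3 had 2.89, 2.90 and 4.13 CPM at the high dose, against 8.98, 8.46 and 8.95 CPM at its low dose (log2 fold change -1.41 ± 0.12 (SE), adjusted p = 3.27e-13). It had 5.91 and 5.54 CPM at the high dose of Aconiti, against 8.11, 9.07 and 7.06 CPM at its low dose (log2 fold change -0.49 ± 0.13 (SE), adjusted p = 0.00721) and 5.16 and 6.37 CPM at the high dose of Yijung-tang, against 7.75 and 8.52 CPM at its medium dose (log2 fold change -0.49 ± 0.14 (SE), adjusted p = 0.0156). The Aconiti call was lost without Aconiti low replicate 2 or Aconiti high replicate 3, and the Yijung-tang call without Yijung-tang high replicate 1 or Yijung-tang medium replicate 2 (adjusted p up to 0.132 and 0.251). The gene is low in these cells, and its high-dose Coptidis libraries lay under 1 CPM.

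P4HA1, a collagen prolyl hydroxylase, had 145, 135 and 139.7 CPM at the high dose of Bupleuri, against 225, 213 and 216 CPM at its low dose (log2 fold change -0.64 ± 0.04 (SE), adjusted p = 2.59e-19) and fell, at -0.18 with Yijung-tang and -0.15 with Coptidis (log2). With Aconiti it had 200.5 and 209.6 CPM at the high dose, against 227, 229 and 214 CPM at its low dose (log2 fold change -0.12 ± 0.04 (SE), adjusted p = 0.0388), a call lost without any of 4 of the 5 libraries. CA9, a carbonic anhydrase that acidifies the surroundings of hypoxic tumour cells, had 29.8, 27.6 and 28.9 CPM at the high dose of Bupleuri, against 43.5, 40.5 and 45.0 CPM at its low dose (log2 fold change -0.58 ± 0.06 (SE), adjusted p = 1.05e-11). It had 34.0 and 35.0 CPM at the high dose of Yijung-tang, against 42.5 and 44.9 CPM at its medium dose (log2 fold change -0.34 ± 0.07 (SE), adjusted p = 0.000383), but 48.4 to 54.4 CPM at the high dose of Cimicifugae, against 42.2, 41.1 and 44.4 CPM at its low dose (log2 fold change 0.26 ± 0.05 (SE), adjusted p = 0.000844). The Cimicifugae and Bupleuri effects on CA9 differed by 0.84 ± 0.08 (SE), adjusted p = 8.38e-12 (log2). CA9 did not pass the test with Coptidis, where it had 34.0 and 35.4 CPM at the high dose, against 32.4 and 32.5 CPM at its low dose (log2 fold change 0.10, adjusted p = 0.226). BNIP3, a mitophagy receptor, had 78.0 and 85.5 CPM at the high dose of Yijung-tang, against 104 and 107 CPM at its medium dose (log2 fold change -0.37 ± 0.08 (SE), adjusted p = 0.000684) and was called in no other extract. ANKRD37 averaged 3.22 ± 1.18 CPM in the vehicle (SD, n = 3) and was called in none.

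**Figure D3:**
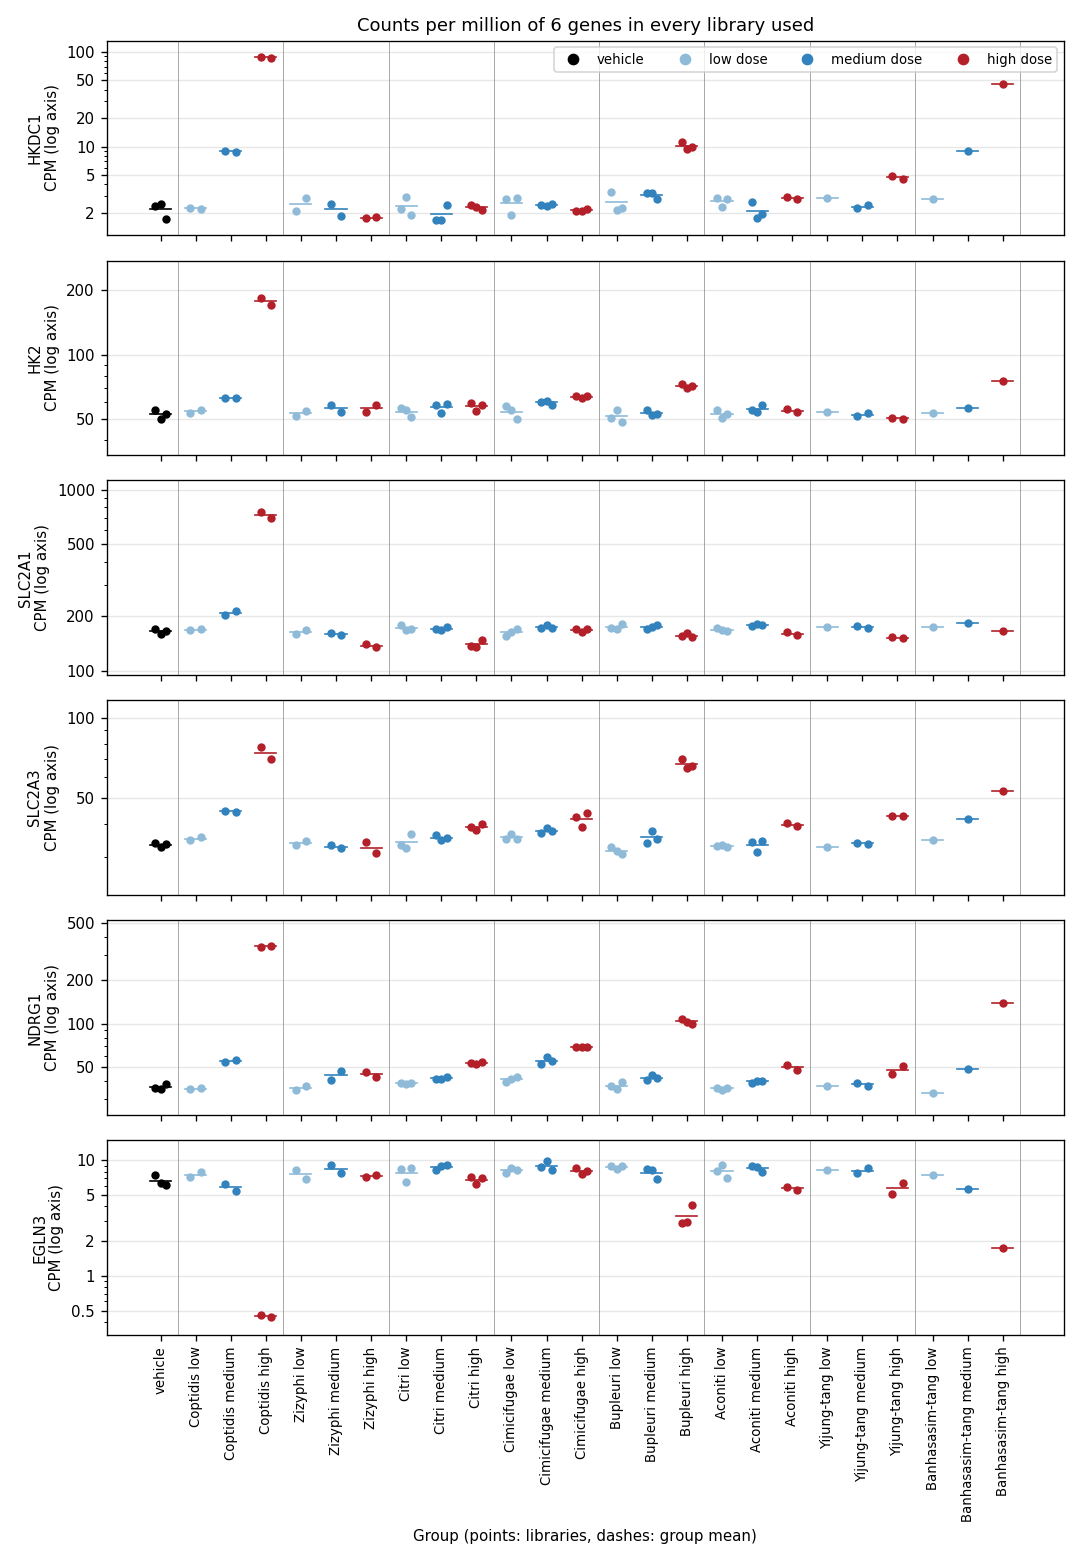
CPM (log axis) of HKDC1, HK2, SLC2A1, SLC2A3, NDRG1 and EGLN3 in every library used (points, with group means as dashes), for the vehicle and the low, medium and high dose of each extract. HKDC1 stands at 87.0 and 87.6 CPM at the high dose of Coptidis, where EGLN3 is under 1 CPM, SLC2A1 rises with Coptidis, and SLC2A3 also stands at 65.3 to 70.3 CPM at the high dose of Bupleuri.

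HIF binds the letters ACGTG or GCGTG, so the promoters of the 44 genes were searched for them on both strands. RefSeq windows on GRCh38.p14, from 250 bases before to 50 bases after the most upstream annotated start, were matched for 39 of the 44 by symbol. ACGTG or GCGTG occurred in 29 of the 39 windows (74.4%), against 48.4% of the windows of all 27305 genes. The E-box CACGTG, which holds ACGTG on each strand, occurred in 7 (17.9%), against 7.4%, and the ATF4 composite element, TGATGNAA, in 1 (2.56%), against 3.67%. The windows of the 39 genes had a median GC content of 68.7%, against 58.3% over all windows. Shown are the 250 bases before the start of the genes with the largest rise and the largest fall, of the hypoxia gene ADM, which rose, and of LDHA, which fell, with ACGTG or GCGTG on either strand in capitals.
HKDC1 (chr10:69220082-69220331, plus strand): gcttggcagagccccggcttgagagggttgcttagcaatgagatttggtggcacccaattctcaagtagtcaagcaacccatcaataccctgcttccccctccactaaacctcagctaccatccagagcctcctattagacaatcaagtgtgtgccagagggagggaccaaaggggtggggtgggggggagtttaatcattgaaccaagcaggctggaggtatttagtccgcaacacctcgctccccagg
ADM (chr11:10304823-10305072, plus strand): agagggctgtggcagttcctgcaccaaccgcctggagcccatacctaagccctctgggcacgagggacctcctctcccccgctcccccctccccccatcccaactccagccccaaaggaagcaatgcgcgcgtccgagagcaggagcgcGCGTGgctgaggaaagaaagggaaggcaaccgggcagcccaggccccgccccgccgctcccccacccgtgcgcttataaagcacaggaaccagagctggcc
EGLN3 (chr14:33951075-33951324, minus strand): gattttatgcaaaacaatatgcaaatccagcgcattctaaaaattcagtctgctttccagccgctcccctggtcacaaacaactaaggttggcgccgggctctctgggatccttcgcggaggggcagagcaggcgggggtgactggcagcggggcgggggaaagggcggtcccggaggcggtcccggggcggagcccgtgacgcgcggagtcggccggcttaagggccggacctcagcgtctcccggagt
LDHA (chr11:18394313-18394562, plus strand): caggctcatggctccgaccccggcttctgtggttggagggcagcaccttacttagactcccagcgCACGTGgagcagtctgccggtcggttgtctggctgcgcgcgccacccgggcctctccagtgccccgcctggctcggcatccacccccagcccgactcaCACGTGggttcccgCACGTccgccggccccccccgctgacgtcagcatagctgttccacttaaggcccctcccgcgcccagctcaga
The LDHA stretch, of the gene that fell with 3 extracts, held 5 matches that include CACGTG 2 times, beginning 185 and 87 bases before the start, with a further single match at 73, and 1 more lay 39 bases after the start. ADM had 1 match, 101 bases before the start. HKDC1 had none before the start and 1 that began 24 bases after it, and EGLN3 had none in its window. The RefSeq starts of all 4 genes lie inside their GENCODE spans, so the bases shown before the start are wholly within the GENCODE gene for ADM and EGLN3 and partly within it for LDHA and HKDC1. A match describes the letters of the window only.

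The changes appeared at the high dose in most extracts. Between medium and low dose, no gene of the 44 was called for Zizyphi, Citri, Bupleuri or Aconiti, where the background was 0.00566% of all genes called, 0.0% higher and 0.00566% lower for Zizyphi, 0.00566% of all genes called, 0.00566% higher and 0.0% lower for Citri, 0.368% of all genes called, 0.277% higher and 0.0905% lower for Bupleuri and 0.0509% of all genes called, 0.0396% higher and 0.0113% lower for Aconiti. For Bupleuri, DESeq2 called 2, both higher. Cimicifugae had 2 (0.385% of all genes called, 0.17% higher and 0.215% lower), NDRG1 at 52.3, 58.2 and 55.4 CPM at the medium dose against 39.4, 41.1 and 42.5 CPM at the low dose (log2 fold change 0.43, adjusted p = 1.05e-07) and VEGFA at 354, 371 and 362 CPM against 326, 312 and 313 CPM (0.19, adjusted p = 0.00513). Coptidis had 14 called, 9 higher and 5 lower (13.6% of all genes called, 7.68% higher and 5.89% lower). The rises were HKDC1, NDRG1, PFKFB2, VEGFA, SLC2A3, SLC2A1, PFKP, HK2 and HIF1A, from 1.99 to 0.14 on the log2 scale, and the falls PFKFB4, SLC2A12, PFKFB3, LDHA and P4HA1. All 14 were also called at the high dose in the same direction, and for 13 of them the high dose was further from the low dose than the medium dose was, P4HA1 being the exception. The medium Coptidis libraries had 13.4% and 13.5% of their counts in mitochondrially encoded genes, against 6.46% and 7.25% at the low dose, and the part of this in the result was not tested.

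**Figure D4:**
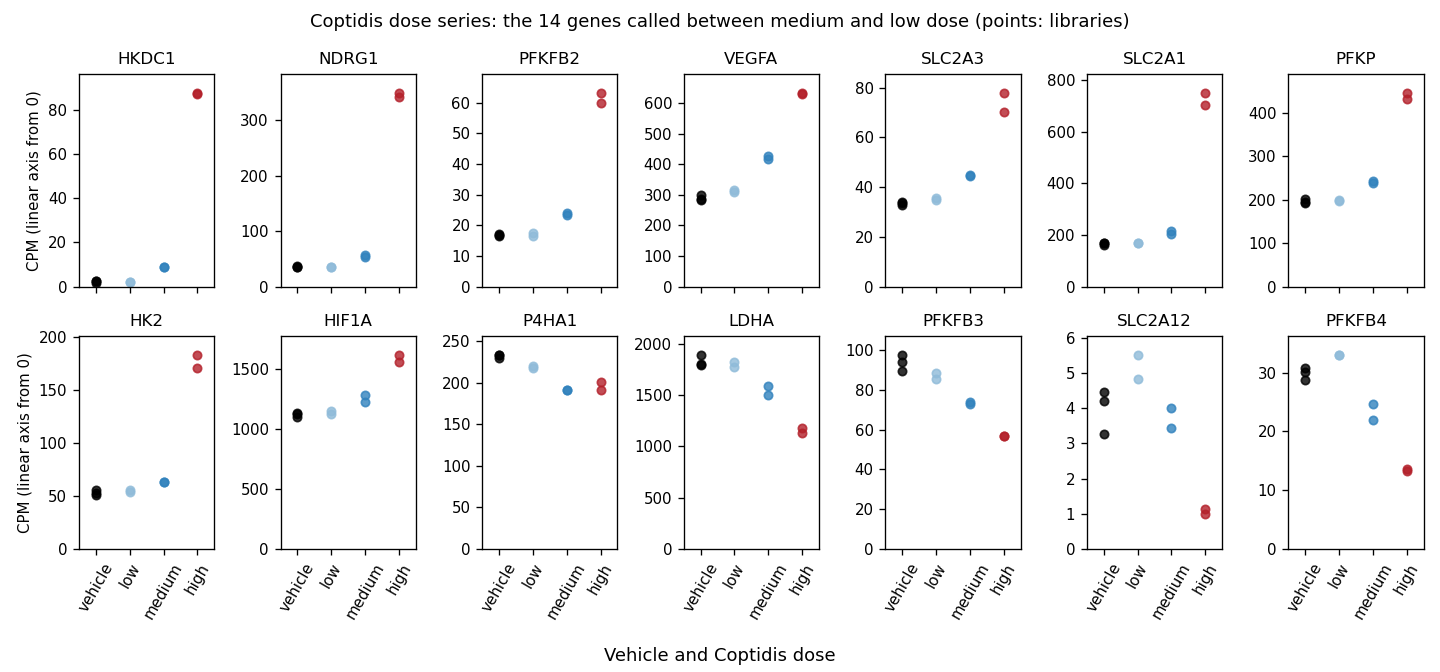
CPM (linear axes from 0) in each vehicle library and each library at the low, medium and high dose of Coptidis, for the 14 genes called between medium and low dose. All 9 genes that rose stand above every vehicle library at the medium dose, and HKDC1 stands at 8.86 and 8.93 CPM at the medium dose and at 87.0 and 87.6 CPM at the high dose.

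Comparisons with the vehicle ask how far the treated cells lay from untreated ones, but no vehicle library carries the first number of the extract libraries, so that number and treatment cannot be told apart there. The 7 high doses share the same 3 vehicle libraries. At high dose, Coptidis had 15 higher and 21 lower of the 44 genes (66.6% of all genes called, 34.0% higher and 32.6% lower), and Bupleuri 15 and 21 (39.6% of all genes called, 20.2% higher and 19.4% lower). Cimicifugae had 18 and 10 (35.7% of all genes called, 16.5% higher and 19.2% lower), and Citri 11 and 12 (31.5% of all genes called, 14.3% higher and 17.1% lower). Yijung-tang had 11 and 18 (30.8% of all genes called, 14.2% higher and 16.7% lower), Aconiti 10 and 10 (27.6% of all genes called, 12.7% higher and 15.0% lower) and Zizyphi 5 and 9 (21.6% of all genes called, 9.64% higher and 12.0% lower). Part of this distance was already present at the low doses. Low-dose Bupleuri had 10 higher and 10 lower (26.9% of all genes called, 12.0% higher and 14.9% lower), and Cimicifugae 9 and 8 (20.8% of all genes called, 8.79% higher and 12.0% lower). Aconiti had 5 and 8 (20.1% of all genes called, 8.46% higher and 11.6% lower), and Citri 6 and 6 (16.1% of all genes called, 6.82% higher and 9.26% lower). Zizyphi had 3 and 8 (11.8% of all genes called, 4.82% higher and 7.0% lower), and Coptidis 0 and 9 (7.32% of all genes called, 3.39% higher and 3.94% lower). With the divergent libraries in the fit, 0 of the 44 were called at any low dose, beside 0.0448% (Coptidis) to 0.779% (Cimicifugae) of all genes; without them the low-dose Coptidis and Zizyphi counts were 1 and 3 when Coptidis low replicate 2 or Zizyphi low replicate 3 was left out.

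Some genes already lay off the vehicle at low dose, in the same direction with most extracts. GALT stood at 15.5, 16.2 and 16.0 CPM at the low dose of Cimicifugae, against 11.8, 13.0 and 13.8 CPM in the vehicle (log2 fold change 0.30, adjusted p = 0.00692). It was higher at the low dose of 5 of 6 extracts, by 0.24 to 0.31, and at the high dose of 6 of 7, by 0.27 to 0.48, Coptidis being the extract without a call. PGAM1 and SLC16A1 were lower at the low dose of all 6 extracts, and LDHB too (-0.27 to -0.16). PGAM1 and the phosphoglycerate kinase PGK1 were lower at all 7 high doses, PGK1 from -0.69 with Coptidis to -0.15 with Citri. HK1 was lower at the low dose of 5 extracts, at -0.13 to -0.11, while it rose between doses with Coptidis and Bupleuri.

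With Coptidis, HKDC1, SLC2A1, NDRG1 and EGLN3 were near the vehicle at low dose and far from it at high dose. HKDC1 was 0.01 at low dose (adjusted p = 0.99) and 5.30 at high dose of Coptidis (log2, adjusted p = 3.25e-33). SLC2A1 was 0.03 and 2.14, NDRG1 -0.03 and 3.26, and EGLN3 0.17 and -3.87 at the same doses. Other wide dose effects had a low-dose mean further from the vehicle. SLC2A12 averaged 5.19 CPM at the low dose of Coptidis, beside 3.98 CPM in the vehicle. At the low dose of Bupleuri EGLN3 averaged 8.80 CPM and PFKFB2 13.8 CPM, beside 6.67 and 16.8 CPM in the vehicle. NDRG1 and VEGFA were higher than the vehicle at the high dose of all 7 extracts, by 0.30 to 3.26 and 0.22 to 1.13. HIF1A passed at 5, with Bupleuri at 0.09 (adjusted p = 0.0534) and Yijung-tang at 0.00 (0.96). BNIP3 was lower at 6 of the 7 high doses, at -0.55 to -0.22, against the direction of NDRG1 and VEGFA. Its mean already lay below that of the vehicle (119 CPM) at every low dose, from 93.9 CPM with Coptidis to 109 CPM with Cimicifugae. At the high dose of Coptidis it averaged 101.9 CPM, above the low dose. Between doses BNIP3 was called with Yijung-tang alone.

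Extracts that share the first number of the sample name were set against each other at high dose. Citri and Cimicifugae, both at 500 µg/mL, differed least, with 2 of the 44 genes higher and 6 lower in Citri (6.67% of all genes called, 3.43% higher and 3.24% lower). UGP2 (0.18) and HIF1A (0.16) were higher in Citri, and ALDOC (-0.41), VEGFA (-0.39), NDRG1 (-0.37), GALM (-0.35), SLC2A1 (-0.26) and CA9 (-0.25) lower (log2). VEGFA had 352, 328 and 332 CPM in Citri, against 457, 449.8 and 420.1 CPM in Cimicifugae, with no overlap. Bupleuri at 210 µg/mL differed from Aconiti at 500 µg/mL in 14 higher and 14 lower (32.0% of all genes called, 17.3% higher and 14.7% lower), led by HKDC1 (1.83), PFKFB2 (1.27), ENO2 (1.11) and NDRG1 (1.06) above and SLC2A12 (-0.94), EGLN3 (-0.79) and ALDOC (-0.69) below. Coptidis at 14 µg/mL against Zizyphi at 500 µg/mL gave 21 higher and 19 lower (65.5% of all genes called, 33.3% higher and 32.2% lower), with HKDC1 at 5.62 and NDRG1 at 2.96 above and EGLN3 at -4.0 and SLC2A12 at -2.17 below. The doses of the last 2 pairs differ, so they compare the groups as made.

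Genes around the pathway were counted in lists chosen by function. Of 19 further HIF targets tested, 13 rose and 5 fell between high and low dose of Coptidis (33.2% of all genes higher and 32.4% lower; median log2 fold change 0.43, beside -0.02 over all genes). The counts were 9 and 4 with Bupleuri (20.6% and 18.6% of all genes), 5 and 0 with Cimicifugae (4.88% and 5.81%) and 4 and 2 with Aconiti (4.28% and 5.25%). They were 4 and 3 with Yijung-tang (4.11% and 5.05%), 3 and 2 with Citri (6.44% and 7.34%) and 2 and 1 with Zizyphi (3.12% and 4.28%). MXI1, a MYC antagonist, rose by 1.58 with Coptidis and 0.64 with Bupleuri, and the histone demethylase KDM3A by 1.11 and 0.38. ANGPTL4, an inhibitor of lipoprotein lipase, had 80.5 ± 5.73 CPM at the high dose of Bupleuri, against 15.4 ± 1.89 CPM at its low dose (SD, n = 3 each; log2 fold change 2.38). It rose in the 6 extracts other than Coptidis and fell there, at -1.80. DDIT4, an inhibitor of mTORC1, rose in 6 extracts and fell with Bupleuri (-0.72).

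Among 7 genes of the HIF machinery tested, EPAS1, which encodes HIF2A, rose in 6 extracts, by 0.23 (Yijung-tang) to 0.77 (Coptidis). EGLN1, the main prolyl hydroxylase of normal oxygen, fell with Coptidis, at -1.20, and was not called in the other 6. HIF1A's partner ARNT rose by 0.45 with Coptidis, 0.20 with Bupleuri and 0.16 with Cimicifugae. VHL and HIF1AN were called in no extract. Of 9 glycogen genes, 5 rose and 3 fell with Coptidis (33.2% of all genes higher and 32.4% lower). PPP1R3B, which brings a phosphatase to glycogen, had 219.8 ± 18.0 CPM at the high dose of Coptidis, against 19.8 ± 0.609 CPM at its low dose (SD, n = 2 each; 3.48), and rose by 1.32 with Bupleuri. The glycogen synthase GYS1 fell, at -1.04 with Coptidis. Of the 7 pentose phosphate genes, 4 rose with Coptidis, 3 with Cimicifugae and 3 with Yijung-tang (33.2%, 4.88% and 4.11% of all genes higher) and none fell there, transketolase TKT being in each (0.58, 0.20 and 0.22), while 2 fell with Bupleuri (18.6% of all genes lower).

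Of 13 genes of pyruvate entry, 4 rose and 4 fell with Coptidis (65.6% of all genes called) and 4 rose and 5 fell with Bupleuri (39.2% of all genes called). PDK4, the starvation-induced pyruvate dehydrogenase kinase, rose with Citri (1.51), Aconiti (1.43), Bupleuri (1.27) and Cimicifugae (0.95) and fell with Coptidis (-1.10). Pyruvate carboxylase, PC, fell with Coptidis (-0.95) and Bupleuri (-0.64). Among 15 further genes of sugar handling, 5 rose and 3 fell with Coptidis (33.2% of all genes higher and 32.4% lower). With Bupleuri 6 rose and 2 fell (20.6% of all genes higher and 18.6% lower). GALK2, a kinase related to GALK1, rose by 0.21 (log2) with Bupleuri and 0.74 with Coptidis. The inositol transporter SLC5A3 fell with Coptidis (-1.12) and rose by 0.30 with Bupleuri. Of 7 further glycolysis genes, 2 rose and 2 fell with Coptidis (65.6% of all genes called), with bisphosphoglycerate mutase BPGM at 0.94. Each list holds genes chosen for their function and known in part from earlier results, so these counts describe the lists and do not set them apart from other genes.

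Banhasasim-tang had 1 library per dose, so its values have no replicate check and no test. From low to medium to high dose HKDC1 had 2.83, 9.03 and 45.6 CPM, beside 1.74 to 2.51 CPM in the vehicle libraries. NDRG1 had 33.1, 48.3 and 139.7 CPM, and SLC2A3 34.8, 41.8 and 53.4 CPM. EGLN3 had 7.43, 5.66 and 1.73 CPM, and LDHA 1745, 1389.8 and 930.0 CPM. SLC2A1 had 176, 184 and 166 CPM, and its high-dose value lay within the vehicle range of 160.2 to 169.6 CPM. The high-dose library had the lowest group value of ENO1, GAPDH, ALDOA, PKM, LDHA, TPI1, PGAM1 and PGK1 among the vehicle and all doses, and 1.52% of its counts in the 44 genes, the lowest share of any library, beside 1.97% to 2.01% in the vehicle. The same library had 11.7% of its counts in mitochondrially encoded genes and 6.09% in MT-RNR2, against 4.66% to 4.94% and 0.819% to 0.882% in the vehicle, and 90.7% in protein-coding genes, against 97.5%; the part of this in its values was not tested. Yijung-tang low kept 1 library, with HKDC1 at 2.85 CPM and NDRG1 at 36.7 CPM.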

How the data were processed

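The values deposited by the authors are RSEM expected counts per gene, not normalized. The submitters' processing notes name FastQC 0.11.9, Trim Galore 0.6.5, STAR 2.7.3a, RSEM 1.3.3 and the build hg38 (GRCh38); the order of steps, annotation and strand setting were not given in the sources used here. Of all values, 9.18% were not whole, and they were rounded. Genes were kept by edgeR's filterByExpr with a minimum count of 10, which left 17680 of 60675. edgeR 4.0.16 (R 4.3.3, TMM scaling, quasi-likelihood test) was fitted once to 55 libraries in 22 groups, with 33 residual degrees of freedom. The 29 comparisons were each adjusted by Benjamini-Hochberg over all genes tested and called at 0.05. Standard errors are the log2 fold change divided by the square root of F. The script was tested on simulated data. Differences between dose effects of 2 extracts are contrasts in the same fit, and the pairs were chosen after values were seen.

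The members and lists were chosen with earlier results of these data known, as was the choice to leave out 2 libraries. Genes were named by a rule. In each dose comparison it took up to 3 of the largest called rises and falls among the 44 whose libraries did not overlap between doses. A fixed list of pathway genes was added, and others are named to complete a role. For genes picked by size of change in a comparison, the absence of overlap was fixed by the rule and adds no support. Gene positions are from GENCODE v29. Replicate numbers did not pair the libraries, since correlations of same-numbered deviations lay between -0.09 and 0.23 and no comparison with 3 pairs had every one over 0.1. Library totals were 15996157 to 30990264 counts, and arms of 2 or 3 libraries limit the precision. DESeq2 1.42.0, no filter, both left-out libraries, only the groups compared, a replicate block and leaving out each library were tried as alternatives. Banhasasim-tang, with 1 library per dose, was not tested.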

Additional observations from a re-analysis of the deposited data

Results flagged for a closer look

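Of the 44 genes, 12 were called higher with one extract and lower with another between doses. For each, the largest called rise minus the largest called fall was tested as a difference of dose effects with edgeR's quasi-likelihood test, adjusted over all genes, and all 12 passed. The genes entered because both calls had passed in the same fit, so a passing difference was nearly fixed in advance and adds no support. The extremes were picked after values were seen, so these are descriptions of the widest gap. In SLC2A1 the Coptidis effect exceeded the Citri effect by 2.40 ± 0.06 (SE; adjusted p = 1.05e-33) on the log2 scale. In ALDOC the Cimicifugae effect exceeded the Coptidis effect by 1.64 ± 0.17 (adjusted p = 2.99e-11). The Coptidis effect exceeded the Yijung-tang effect in PFKP by 1.29 ± 0.05 (adjusted p = 9.6e-24). In SLC2A6 the Bupleuri effect exceeded the Coptidis effect by 1.09 ± 0.10 (adjusted p = 1.22e-12). CA9 differed by 0.84 ± 0.08 between Cimicifugae and Bupleuri (adjusted p = 8.38e-12), and SLC2A10 by 0.79 ± 0.12 between Yijung-tang and Coptidis (adjusted p = 2.49e-07). PDK1 differed by 0.48 ± 0.10 between Bupleuri and Yijung-tang (adjusted p = 0.000181). Coptidis exceeded Bupleuri by 0.40 ± 0.05 in GAPDH (adjusted p = 3.52e-09), 0.34 ± 0.05 in ALDOA (adjusted p = 9.83e-07), 0.31 ± 0.05 in SLC16A1 (adjusted p = 3.32e-06) and 0.24 ± 0.06 in PGM1 (adjusted p = 0.000958). In LDHB Coptidis exceeded Cimicifugae by 0.32 ± 0.07 (adjusted p = 0.000152).

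The single high-dose library of Banhasasim-tang, which enters no comparison, had HKDC1 at 45.6 CPM and NDRG1 at 139.7 CPM, each more than 2 times the highest vehicle library.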

How the results depend on the processing

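The widest dependence was on the 2 divergent libraries. With both in the fit, the genes called of the 44 between doses numbered 23 for Coptidis, 16 for Bupleuri, 2 for Cimicifugae and for Yijung-tang, 1 for Citri and 0 for Zizyphi. Between medium and low dose they numbered 4 for Coptidis and 0 for Cimicifugae. Against the vehicle at high dose they numbered 17 for Bupleuri, 7 for Yijung-tang, 6 for Cimicifugae, 5 for Citri and 2 for Zizyphi, and at low dose 0 for each of the 6 extracts. Between extracts they numbered 25 for Coptidis against Zizyphi and 1 for Citri against Cimicifugae. The same setting reversed SLC16A3 (0.41) and HIF1A (-0.19) between the Aconiti doses, and SLC2A6 (-0.07), UGP2 (0.27), PFKFB4 (-0.06) and LDHA (0.07) between Bupleuri and Aconiti; the cause was not tested. With only the groups compared, 7 were called for low-dose Bupleuri against the vehicle and 1 for medium Cimicifugae. With no filter, 7 were called for low-dose Zizyphi against the vehicle and 1 for medium Zizyphi, and DESeq2 called 2 for medium Bupleuri. Leaving out 1 library gave 2 to 4 for Zizyphi, 7 to 12 for Citri, 6 to 9 for Aconiti and 15 to 19 for Yijung-tang between doses. It gave 0 to 1 for medium Zizyphi, 1 to 3 for medium Cimicifugae and 0 to 3 for medium Bupleuri. Against the vehicle it gave 9 to 13 for high-dose Zizyphi, and at low dose 1 to 9 for Coptidis, 3 to 9 for Zizyphi and 7 to 10 for Citri. With the replicate number as a block, 37 of the 44 genes were called for Coptidis between doses and 12 for Citri, and no count moved by over 1.5 times. The other counts, 276 over all settings, stayed within 1.5 times, which does not mean that the same genes were called. Between the Aconiti doses with both divergent libraries, 8 were called, of which 3 were among the 10 of the main fit. Where an arm keeps 1 library, it is assumed to vary like the other groups.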
